A study of Mus musculus with 24 samples.

Results

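The 8 control libraries of this series describe the transcriptome of the thoracic aorta of mice that ate plain chow and were challenged with a cytokine, with no drug. They were chosen as the columns of the count table named for the control condition after interleukin-1beta, and they are 8 of 24 libraries. The mice were wildtype adult C57BL/6 males aged 10 to 12 weeks. Each was injected into the peritoneum with interleukin-1beta at 10 ug/kg, 4 h before it was killed, and tissue was taken at zeitgeber time 11, that is, 11 h after lights on. The other 16 libraries came from mice with the same injection whose chow held celecoxib (100 mg/kg/day, 8 libraries) or rofecoxib (50 mg/kg/day, 8 libraries) for 3 weeks, and they serve below only as a separate look at patterns found in the controls. Since no library came from a mouse without interleukin-1beta, levels after the cytokine are given and its effect was not measured.

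Interleukin-1beta acts through its receptor on cells of the vessel wall and activates the transcription factor NF-kB, which drives genes for chemokines, adhesion molecules and its own inhibitors. The media of the aorta is built of contractile smooth muscle cells between elastic lamellae, with an endothelium inside, and fibroblasts, nerve fibres, leukocytes and adipose tissue outside. RNA from the whole vessel holds a mix of all of these. In such a mix, fewer cells of a type and less RNA per cell cannot be told apart.

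The table listed 25941 genes, of which 16246 had a read in every control library and 2808 had none in any of them. The control libraries held between 21668798 and 21685092 counted reads, a range of 0.075%, so counted depth was nearly the same in all. Levels are given in CPM, the reads of a gene relative to all reads of its library, after scaling by the trimmed mean of M values (TMM). Where 1 gene is set against another, CPM was divided by the gene's exon length in kb. All 8 libraries differed from each other by more than the sampling of reads gives. Several stood apart in markers of a single tissue: replicates 5 and 6 in sympathetic neuron genes, replicates 4 and 6 in cardiac genes, replicate 3 in skeletal muscle genes and replicates 4 and 7 in adipocyte genes. Their values are given beside the results they touch.

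The libraries carried the marks of contractile smooth muscle. Acta2, which encodes smooth muscle alpha-actin, had 10620 CPM in the lowest library (replicate 4), a median of 13820 and 15460 in the highest (replicate 6), and ranked first of all genes by reads. Myh11, the smooth muscle myosin heavy chain gene, ran from 7124 to 9923 CPM with a median of 9122 and ranked 3. Both were lowest in replicates 4 and 3 and highest in replicate 6. The genes chosen as marks of the cytokine were lower and spread more. Icam1, which encodes an adhesion molecule for leukocytes, ranked 59, with 963.2 CPM in replicate 3, a median of 1360 and 2309 in replicate 6. Ptgs2, which encodes the inducible cyclooxygenase-2, ranked 1529, with 78.26 CPM in replicate 3, a median of 125.4 and 190.4 in replicate 6. The SD of log2 CPM over the 8 libraries was 0.22 for Acta2, 0.17 for Myh11, 0.43 for Icam1 and 0.38 for Ptgs2, against a median of 0.16 over the 13089 genes that averaged 1 CPM or more. On the mm9 build, as the table gives positions, Acta2 (ENSMUSG00000035783) lies on chromosome 19 from 34315378 to 34330028, Myh11 (ENSMUSG00000018830) on chromosome 16 from 14194418 to 14291703, Icam1 (ENSMUSG00000037405) on chromosome 9 from 20820202 to 20833443 and Ptgs2 (ENSMUSG00000032487) on chromosome 1 from 151947052 to 151955342.

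The reads were spread over many genes. Acta2 alone took 1.071% to 1.514% of the counted reads of a library. The 10 genes with the most reads took a median of 7.53%, the 100 highest took 23.87% and the 1000 highest took 56.25%. A mean of at least 1 CPM was reached by 13089 genes, at least 10 by 9180, at least 100 by 2111, at least 1000 by 98 and at least 10000 by 2, Acta2 and Flna. Protein-coding genes took a median of 99.09% of the reads and long intergenic RNAs 0.2213%. No mitochondrial gene was among those counted, so CPM and read shares leave these transcripts out.

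Per length, metallothioneins and contractile genes led. Mt2, which encodes a small metal-binding protein induced by stress hormones and cytokines, was highest at 10060 ± 959.8 CPM per kb (SD, n = 8), and Mt1, of the same family, had 4284 ± 363.3. Between the pair stood Acta2 at 6092 ± 896.6. Tagln, which encodes the actin-binding protein SM22, had 3427 ± 300.4 and Myl9, a regulatory myosin light chain gene, 2979 ± 235.8 CPM per kb. Next came secreted proteins of the vessel wall, Igfbp7 at 2343 ± 181.3 and Mgp, an inhibitor of vascular calcification, at 2112 ± 200.6. Eef1a1, the elongation factor of translation, stood at 1915 ± 65.01, Tmsb4x, an actin-sequestering peptide gene, at 1790 ± 218.5 and B2m, the light chain of major histocompatibility complex class I, at 1013 ± 78.58. Neighbours in this order often overlapped, as the plot of levels per length shows.

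**Figure D1:**
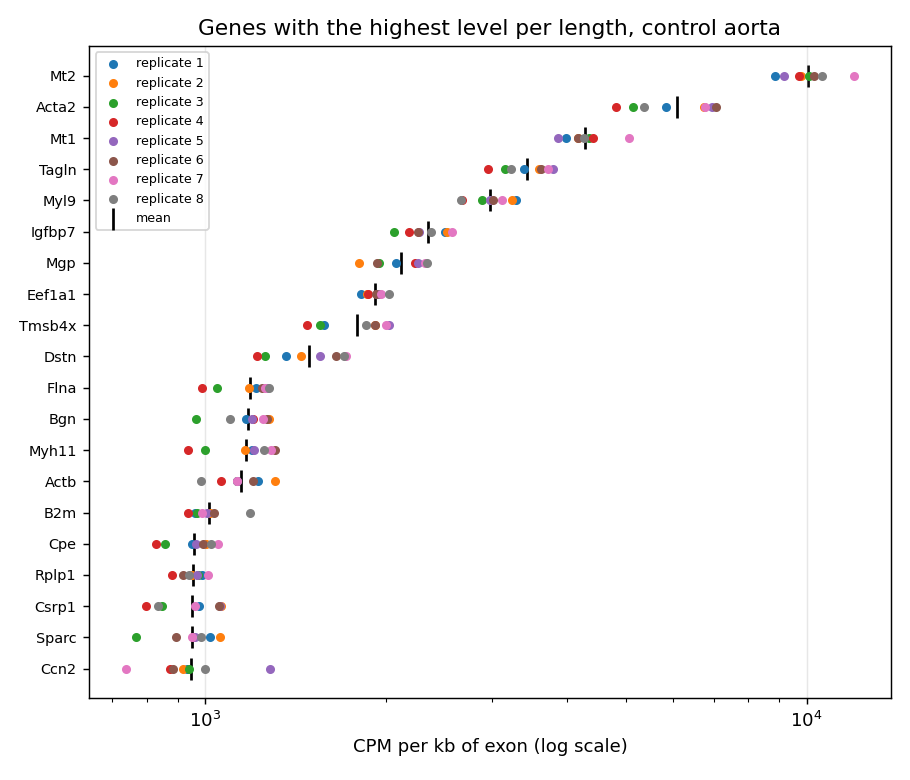
Levels of the 20 genes with the highest mean CPM per kb of exon in control aorta, on a log axis. Each coloured point is 1 of the 8 libraries and the bar is their mean; Mt2 lies above Acta2 in mean (10060 against 6092 CPM per kb), and Eef1a1 has among the narrowest spreads of the genes shown.

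By reads rather than per length, large cytoskeletal and matrix genes rank high, since long transcripts yield more reads. Flna, which encodes filamin A, had 9297 to 11990 CPM, with a median of 11570. Bgn, the proteoglycan biglycan gene, had 5888 to 7792 CPM (median 7310). Fn1, the fibronectin gene, had 5123 to 6799 CPM (median 6413). Col18a1, a basement membrane collagen gene, had 3173 to 4384 CPM (median 3894), and Eln, the gene for tropoelastin, ranked 121 with 504.5 to 1355 CPM (median 802.7). The elastin transcript varied more over these adult aortas than the other matrix genes named here, with an SD of 0.47 in log2 CPM against 0.13 for Fn1 and 0.17 for Col18a1. Eln was low in replicate 3 and high in replicates 1 and 2.

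Grouped by gene names, smooth muscle and actin cytoskeleton genes took the largest share of reads of the classes formed here. These 40 genes held 6.916% of reads in replicate 4, a median of 8.193% and 8.615% in replicate 5. A set of 66 elastic fibre and other matrix genes held a median of 4.447% (4.136% to 4.688%) and 44 collagen chain genes 1.836% (1.668% to 2.091%). The 85 cytosolic ribosomal protein genes held 2.263% (2.117% to 2.47%), 61 translation factor genes 1.523% and 91 heat shock and chaperone genes 1.247%. Metallothioneins, 4 genes, held 1.106%, with the highest share of 1.322% in replicate 7. Cytokine and immune genes were small classes by reads. The 31 chemokine genes held a median of 0.1676%, from 0.1406% in replicate 8 to 0.2962% in replicate 2, and 31 interleukin and colony-stimulating factor genes held 0.07305%, also lowest in replicate 8 and highest in replicate 2. Class I genes with B2m held 0.2672%, class II genes 0.01334% and immunoglobulin chains 0.0004775%. At the other end, 185 of 422 olfactory and vomeronasal receptor genes had no read and 7 reached 1 CPM.

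Marker lists of cell types give a view of what else the samples held. Summed over each list, 16 contractile smooth muscle genes had 36200 CPM (replicate 4) to 48200 CPM (replicate 6), with a median of 45100. Adventitial fibroblast markers, 14 genes such as Dcn and Lum, had 2370 to 3220 CPM (median 2680). Endothelial markers, 16 genes led by Pecam1 and Vwf, had 895 to 1170 CPM (median 1080). Macrophage markers had 369 to 476 CPM (median 432) and mast cell markers 39.4 to 67.0 (median 55.7). Lymphocyte markers, 13 genes for T, B and natural killer cells, had 2.66 to 5.28 CPM in sum, and mesothelial markers 0.191 to 3.2 CPM. Among neutrophil markers, the sum ran from 33.6 CPM in replicate 7 to 125 in replicate 8, with a median of 62.4. Every list just named had a read for each of its members over the control libraries. These lists differ in the number and length of their genes, so the sums order libraries within a list and not cell types.

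**Figure D2:**
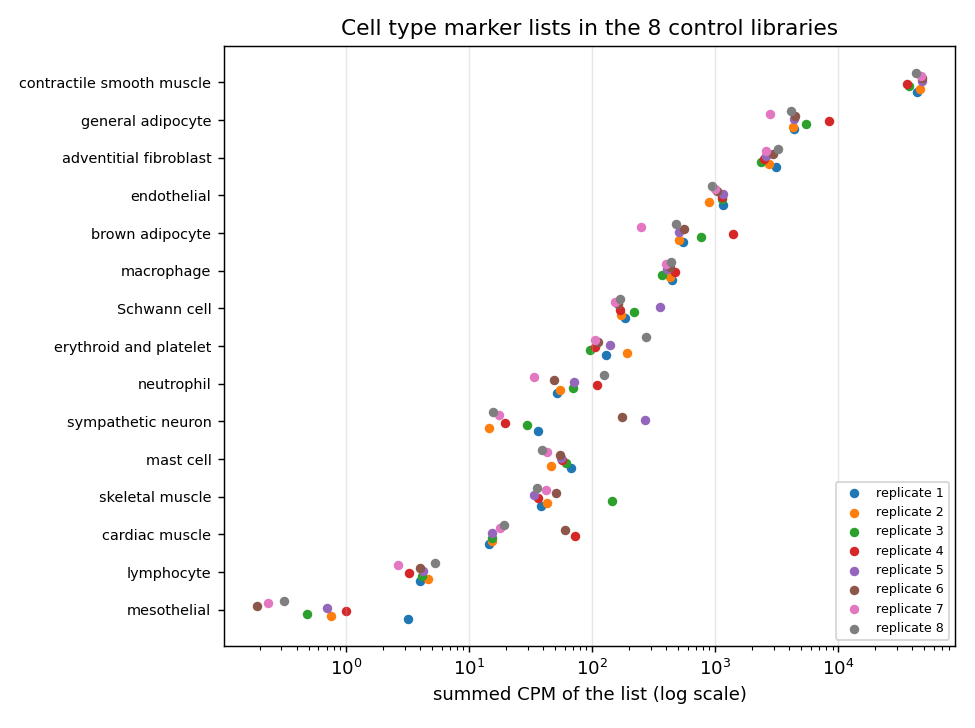
Summed CPM of 15 cell type marker lists, on a log axis, with 1 point for each control library. Points of the smooth muscle, fibroblast, endothelial and macrophage lists lie close together, while replicates 5 and 6 lie apart in the sympathetic neuron list, replicates 4 and 6 in the cardiac list and replicate 3 in the skeletal muscle list.

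Most genes were steady over the 8 mice, and some of those that were not belong to the marker lists of a few tissues. Beside 100 of all 13089 genes, the 100 most variable held 5 of 9 skeletal muscle, 4 of 12 brown adipocyte and 3 of 6 cardiac markers averaging 1 CPM. They held 2 each of 16 general adipocyte, 11 Schwann cell, 8 erythroid and platelet and 32 acute NF-kB response genes. Some, such as the skeletal muscle gene Myh4, reached that mean only through 1 library where they were high, so these counts are a description. Another 16 of the 100 were in a list of sympathetic neuron genes. That list was drawn up after the most variable genes had been seen, so its count cannot be set against the others. The SD of log2 CPM was under 0.1 for 2929 of 13089 genes and above 1 for 72. The steadiest genes with at least 50 CPM were Ubxn4, an adaptor of protein degradation at the endoplasmic reticulum, with 120.5 to 125.3 CPM and an SD of 0.020, Ddx47, an RNA helicase gene (SD 0.021), Mbd2, which binds methylated DNA (SD 0.022), and Ssr4, of the translocon complex (SD 0.023). Among abundant genes Eef1a1 was the steadiest of those named above, with an SD of 0.049 at 4529 to 5041 CPM.

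Genes of sympathetic neurons were among the most variable. Of the 20 most variable genes, several make or handle noradrenaline. Dbh, which encodes the enzyme that makes noradrenaline from dopamine, had 34.3 CPM in replicate 5, 22.8 in replicate 6 and 0 to 3.15 in the other 6. Th, the first enzyme of catecholamine synthesis, had 16.4 and 10.1 CPM in replicates 5 and 6 and 0 to 2.18 elsewhere. Slc6a2, the noradrenaline transporter gene, had 40.0 and 23.5 CPM there and 1.05 to 4.27 elsewhere. Npy, the cotransmitter neuropeptide Y gene, had 16.7 and 10.2 CPM there and 0.191 to 2.23 elsewhere. In all 4 genes the values of replicates 5 and 6 did not overlap those of the other 6 libraries. These genes were taken from those with the largest SD, so the gap describes them and is no separate support. Chrna3 and Htr3a, genes of receptors found on autonomic neurons, and the vesicle gene Syt4 were also among the 20.

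A list of 20 sympathetic neuron genes, drawn up after these genes had been seen, summed to 269 CPM in replicate 5 and 174 in replicate 6. The other 6 libraries had 14.5 to 36.1 CPM. Of the 18 members that averaged 1 CPM or more, 17 were highest in replicate 5 and 17 second in replicate 6. Schwann cell markers, a separate list of 12 genes of nerve sheath, summed to 354 CPM in replicate 5 and 153 to 221 in the other libraries. Replicate 6 was not high in that list. In the drug-fed libraries the sympathetic list ran from 10.5 to 112 CPM with celecoxib and from 11.8 to 1130 with rofecoxib, so single libraries rich in these genes were found in each group.

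Muscle of other kinds marked other libraries. Myh6, a cardiac myosin heavy chain gene, had 22.2 CPM in replicate 6, 18.9 in replicate 4 and 0.465 to 1.44 elsewhere. Myl7, the atrial light chain gene, had 5.35 CPM in replicate 4, 3.54 in replicate 6 and 0 to 0.316 elsewhere. The 9 cardiac markers summed to 73.3 CPM in replicate 4, 60.0 in replicate 6 and 14.5 to 19.3 elsewhere. Myh4, the gene of fast skeletal myosin and the most variable gene of all, had 29.1 CPM in replicate 3 and at most 0.0902 elsewhere. Atp2a1, the calcium pump of fast muscle, had 16.05 CPM in replicate 3 and at most 0.286 elsewhere. The 15 skeletal muscle markers summed to 146 CPM in replicate 3 and 33.8 to 50.6 elsewhere. Of the 100 most variable genes, 43 were highest in replicate 5, 34 in replicate 4 and 0 in replicate 7. Over all 13089 genes, replicate 5 was the highest library in 7.96% and replicate 4 in 18.4%.

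Many of the most variable genes also varied in the drug-fed groups. Of the 20 most variable control genes, 18 were among the 100 most variable with celecoxib and 20 with rofecoxib. Of the 100 most variable control genes, 35 and 55 were among those 100. Across the 13089 genes the SD in control had a Spearman rho of 0.779 with the SD under celecoxib and 0.786 with that under rofecoxib. The genes are not independent replicates. Low counts raise the SD in every group, and their part in this rho was not tested. The count with an SD above 1 was 140 with celecoxib and 245 with rofecoxib. With a floor of 5 CPM in place of 1, 33 of the 100 most variable control genes were the same and 18 genes had an SD above 1. Leaving out 1 library in turn gave 61 (without replicate 7) to 87 (without replicate 1).

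**Figure D3:**
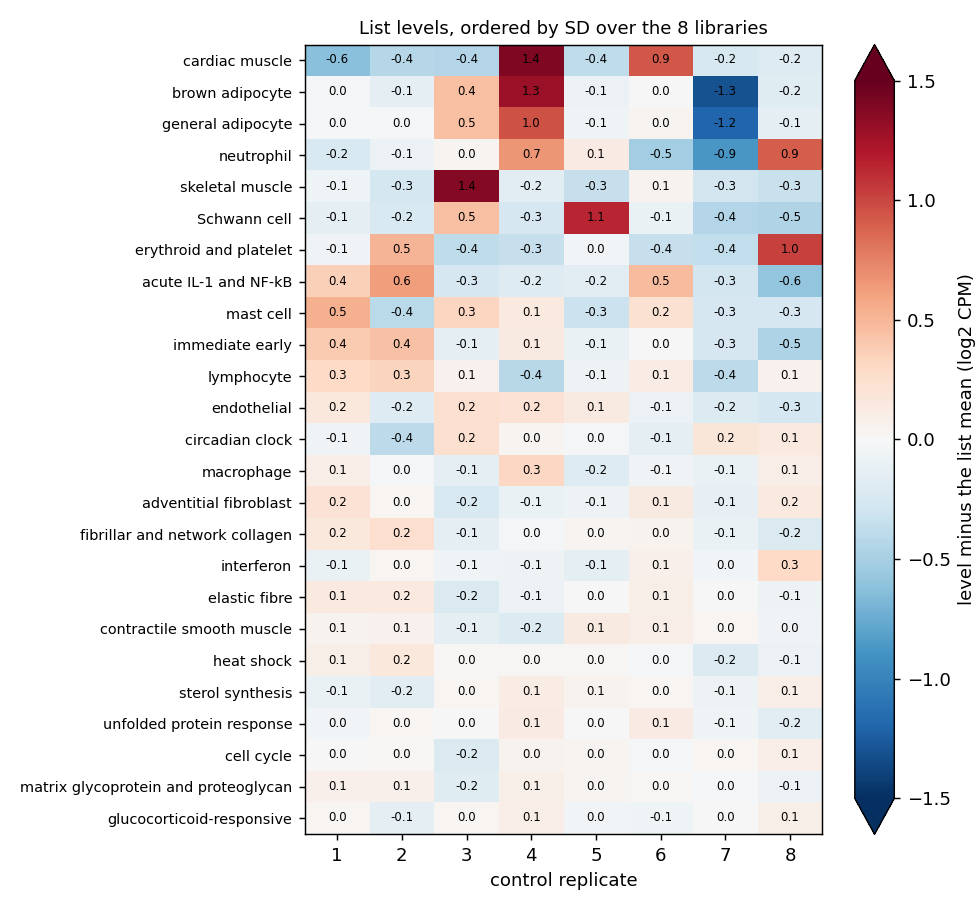
Level of each of 25 lists in each control library, ordered from the largest to the smallest SD. The level is the mean log2 CPM of the tested members minus the mean of the 8 libraries. Tested members were 4 of 9 for cardiac, 5 of 15 for skeletal muscle and 1 of 13 for lymphocyte markers. Cardiac, adipocyte, neutrophil and skeletal muscle lists head the order, and the list of acute NF-kB response genes is high in replicates 1, 2 and 6 and lowest in replicate 8.

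Most genes of the acute NF-kB response moved together over the controls. The list held 32 genes for chemokines, adhesion molecules, cytokines, NF-kB subunits and inhibitors. Its level, the mean log2 CPM of 31 tested members, was 6.24 in replicate 8 (the lowest), had a median of 6.66 and was 7.46 in replicate 2 (the highest). Replicates 1, 2 and 6, at 7.19, 7.46 and 7.31, lay above the other 5, at 6.24 to 6.68. These were the 3 highest libraries for 21 of 32 members, and 19 members were lowest in replicate 8. Some members ran apart: 3 were highest in replicate 3, 3 in replicate 4 and 1 in replicate 8, and 1 was lowest in replicate 2. Cxcl2, a chemokine that attracts neutrophils, spread the most, from 7.35 CPM in replicate 8 over a median of 16.08 to 93.2 in replicate 2. Cxcl1, its close relative, had 224 to 1400 CPM with a median of 405.2, and Il6, the gene of interleukin-6, 25.35 to 112.3 with a median of 38.9. Nfkbia, which encodes the inhibitor of NF-kB that NF-kB itself induces, ran from 517 to 1282 CPM (median 641.6) and Ccl2, a monocyte chemokine gene, from 37.29 to 159 (median 61.39). Sod2, the mitochondrial superoxide dismutase gene, was steady by comparison, at 440 to 531 CPM. The list's genes set this level, so their own slopes on it were not counted.

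The promoters of 3 strongly varying members and of Icam1 are shown because NF-kB binds sites of a known form. Each is the 250 bases before the start site from RefSeq on GRCm38.p6, written 5′ to 3′ in the direction of the gene, with matches on either strand in capitals to GGG and TTTCC with any 2 bases between, or to GGAANTTCC, forms that can overlap. The stretches are chr5:90890995-90891244 (plus strand) for Cxcl1, chr5:90903649-90903898 (plus strand) for Cxcl2, chr5:30012864-30013113 (plus strand) for Il6 and chr9:21015690-21015939 (plus strand) for Icam1.
Cxcl1: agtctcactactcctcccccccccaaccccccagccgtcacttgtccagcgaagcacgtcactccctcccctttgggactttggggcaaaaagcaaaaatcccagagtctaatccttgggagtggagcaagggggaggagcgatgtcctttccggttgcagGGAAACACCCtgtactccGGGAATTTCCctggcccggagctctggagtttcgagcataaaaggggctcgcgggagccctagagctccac
Cxcl2: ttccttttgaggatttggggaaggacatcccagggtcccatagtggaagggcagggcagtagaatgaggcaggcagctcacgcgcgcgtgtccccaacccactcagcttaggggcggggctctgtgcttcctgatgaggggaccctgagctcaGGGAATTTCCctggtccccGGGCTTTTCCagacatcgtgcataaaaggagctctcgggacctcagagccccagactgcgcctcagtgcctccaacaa
Il6: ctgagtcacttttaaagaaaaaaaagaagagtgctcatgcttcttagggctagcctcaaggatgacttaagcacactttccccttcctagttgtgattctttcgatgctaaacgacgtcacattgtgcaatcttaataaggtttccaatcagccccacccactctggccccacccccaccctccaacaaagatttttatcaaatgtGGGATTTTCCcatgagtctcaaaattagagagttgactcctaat
Icam1: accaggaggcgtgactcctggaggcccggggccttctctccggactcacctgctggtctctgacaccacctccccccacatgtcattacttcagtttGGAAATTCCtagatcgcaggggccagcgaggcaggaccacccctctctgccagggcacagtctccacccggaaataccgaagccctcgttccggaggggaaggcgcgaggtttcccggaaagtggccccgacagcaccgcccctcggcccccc
The matches began 89 and 71 bases before the start site in Cxcl1, 97 and 78 in Cxcl2, 44 in Il6 and 153 in Icam1. Of 24 list members with a promoter in the table, 8 held such a match within 250 bases before to 50 bases after the start, 33.3%, against 2.49% of all 27025 promoters. The list was made of genes known as NF-kB targets. A match is a stretch of letters, and binding was not measured.

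The next question was which genes outside the list followed its level. For each gene the slope of log2 expression on the level was tested over the 8 libraries by edgeR's quasi-likelihood test. A slope of 1 means that the gene changed by as much on the log2 scale as the list did. Of 13299 genes, 488 were called at a Benjamini-Hochberg adjusted p under 0.05, which is 3.67%, with 326 higher (2.45%) and 162 lower (1.22%) as the level was higher. Scaling by library size alone gave 224 higher and 213 lower. The count rests on libraries at the ends of the range: it was 54 without replicate 2 and 107 without replicate 8, and 256, 292 and 273 without replicates 1, 3 and 6. Ier5, Slc25a25, Rnd1, Kdm6b and Phlda1, the 5 rising genes with the smallest p, kept their call in each of 14 other fits.

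Signalling and transcription genes were among those that rose with the acute level. Ier5, an immediate early gene, had 28.37 CPM in replicate 8, a median of 47.07 and 115.8 in replicate 2, with a slope of 1.63 (SE 0.09, edgeR adjusted p = 9.53e-05). Rnd1, which encodes a small GTP-binding protein, ran from 126.3 CPM in replicate 8 over a median of 261.7 to 733.4 in replicate 2, with a slope of 1.99 (SE 0.14, edgeR adjusted p = 0.000195). In both genes replicates 1, 2 and 6 lay above the other 5 libraries. Slc25a25, a mitochondrial ATP carrier gene, had a slope of 1.10, Kdm6b, a histone demethylase induced in inflammation, 0.99 and Phlda1 1.11. Irf1, a transcription factor of interferon and cytokine responses, ran from 108 to 474 CPM, with a slope of 1.73 (SE 0.17). Csf2, the gene of the cytokine GM-CSF, had the steepest slope of those named, 2.69 (SE 0.26), at 2.571 to 27.06 CPM. Rela, which encodes the p65 subunit of NF-kB, had a slope of 0.68, Nfkbie, an NF-kB inhibitor gene, 1.39, Plau, the urokinase gene, 2.12 and Ptgir, the prostacyclin receptor gene, 0.93, all called, with Rela losing its call without replicates 2 or 8.

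The marks chosen for the cytokine response followed the level less closely. Icam1 had a slope of 0.71 (SE 0.24, edgeR adjusted p = 0.138) and Ptgs2 0.54 (SE 0.22, edgeR adjusted p = 0.224). This edgeR fit of the controls thus called neither. Icam1 was 1770 CPM in replicate 7, which had a low acute level, and 1360 in replicate 1, which had a high one. In the 16 drug-fed libraries the slopes were 0.97 (SE 0.15, edgeR adjusted p = 0.000413) for Icam1 and 0.45 (SE 0.21, edgeR adjusted p = 0.142) for Ptgs2. Among other prostanoid genes, Ptgis, the prostacyclin synthase gene, had 792 to 1073 CPM and a slope of 0.15, and Ptgs1, which encodes the constitutive cyclooxygenase-1, had 5.44 to 8.994 CPM and a slope of -0.12, neither of them called.

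Immediate early genes, which respond within minutes to many stimuli, leaned the same way as the acute list. Of 20 members, 19 had a slope above 0, with a median of 0.725 against -0.0179 over all genes tested, and 6 were called higher, 30% of the list beside 2.45% of all genes. These were Fosl2 (1.06), Egr3 (1.12), Ier2 (0.98), Junb (0.86), Nr4a3 (0.83) and Btg2 (0.60). Without replicate 2 Fosl2 alone was called, and without replicate 8 there were 2. Fos, with 13.35 to 34.77 CPM, had a slope of 0.81 (edgeR adjusted p = 0.198). The levels of the immediate early and acute lists had a Pearson r of 0.836 over the 8 libraries (exact permutation p = 0.0102, adjusted p = 0.0600 over 15 pairs of lists) and a Spearman rho of 0.881 (exact permutation p = 0.00724, adjusted p = 0.0362). Without replicates 2 and 6 the r was 0.936. The same r was 0.913 with rofecoxib and 0.394 with celecoxib.

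Core clock genes, which run the daily cycle of transcription, were called with the acute level in 9 of 14 cases, 2 higher and 7 lower, 64.3% of the list beside 3.67% of all genes. Arntl, which encodes the activator BMAL1, had 5.86 CPM in replicate 8, a median of 10.54 and 23.9 in replicate 2, with a slope of 1.409 (SE 0.14, edgeR adjusted p = 0.00111). Per2, a repressor of the cycle, ran the other way, with 81.7 CPM in replicate 2, a median of 164.4 and 261 in replicate 8, and a slope of -1.17 (SE 0.16, edgeR adjusted p = 0.00571). Dbp, an output gene of the clock, had 22.3 CPM in replicate 2, a median of 56.21 and 87.8 in replicate 3, with a slope of -1.40 (SE 0.24, edgeR adjusted p = 0.0142). Replicates 1, 2 and 6 were the 3 highest libraries for Arntl and the 3 lowest for Per2 and for Dbp. Npas2, a partner of BMAL1, had a slope of 0.87, and Per3 -1.12, Tef -0.87, Ciart -1.18, Bhlhe41 -0.60 and Cry2 -0.50 were also called. Not called by edgeR over all 8 libraries were Clock at 0.27, Cry1 at -0.57, Nr1d1 at 0.13, Nr1d2 at -0.31 and Hlf at -0.63. The count rests on replicate 2, without which Arntl was the 1 clock gene called, and 4 were called without replicate 8. Leaving out any 1 of the others gave 7 to 9. DESeq2 on all 8 libraries called 11 of the 14, 2 higher and 9 lower. The Arntl call held in every one of 14 other fits, Per2 and Dbp lost theirs only without replicate 2 among those 14, and Ciart kept its call in 1 of the 8 fits that left out a library.

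**Figure D4:**
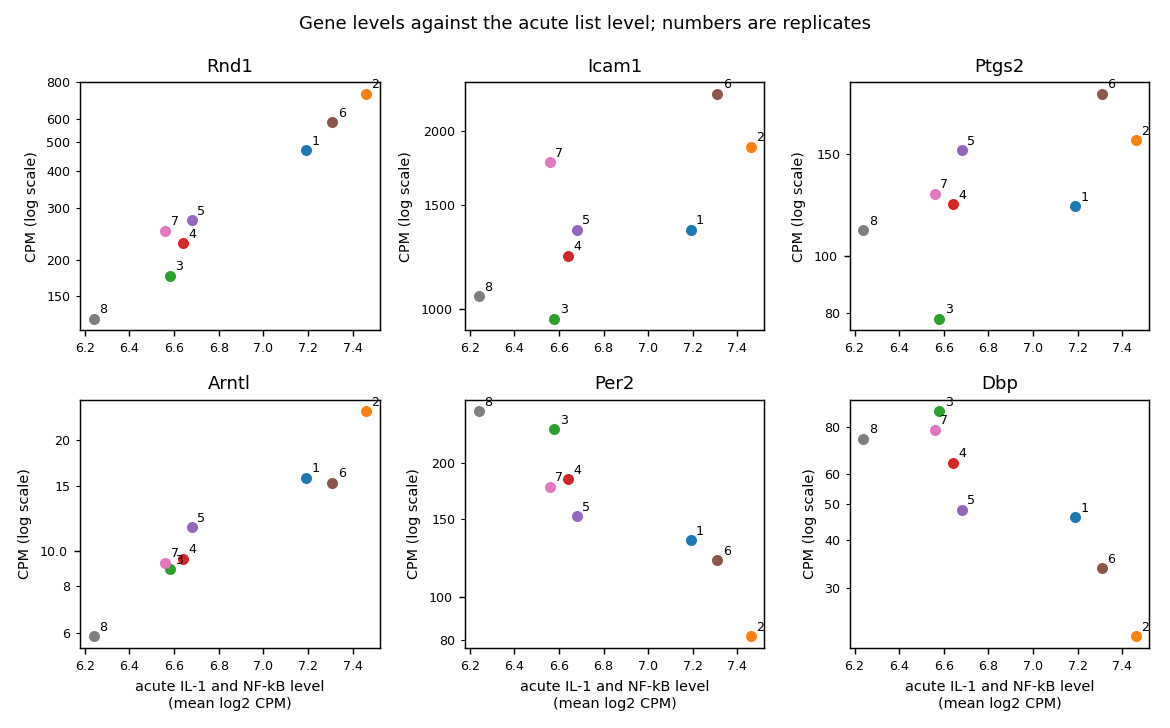
CPM of 6 genes on a log axis against the acute response level (mean log2 CPM) of the 8 control libraries, labelled by replicate. Rnd1 and Arntl rise and Per2 and Dbp fall along the level, with replicates 1, 2 and 6 to the right, while Icam1 and Ptgs2 scatter more.

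In the drug-fed libraries 8 of these 9 clock genes had the same sign of slope, but the slopes were nearer 0. Over all genes, 65.8% of those with a slope above 0 in the controls kept the sign, and 70.4% of those below 0. The median over the 14 clock genes was -0.0834, against -0.583 in the controls. Arntl had a slope of 0.40 (SE 0.36), Per2 -0.27 (SE 0.21) and Cry2 turned to 0.07 (SE 0.08). Tef at -0.52 (SE 0.13, edgeR adjusted p = 0.00861) and Dbp at -0.53 (SE 0.15, edgeR adjusted p = 0.0193) were called there too. The difference between control and drug-fed slopes was not tested. All mice were collected at the same labelled zeitgeber time. Libraries were made over 3 days, and which library belongs to which day is not given in the sources used here. No values within a day can therefore be given.

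The clock genes among the called ones whose 250 bases before the start site hold an E-box, the sequence CACGTG to which BMAL1 and CLOCK bind, include Ciart (chr3:95882229-95882478 (minus strand)) and Tef (chr15:81802423-81802672 (plus strand)), shown from RefSeq on GRCm38.p6 in the direction of the gene with the E-box in capitals.
Ciart: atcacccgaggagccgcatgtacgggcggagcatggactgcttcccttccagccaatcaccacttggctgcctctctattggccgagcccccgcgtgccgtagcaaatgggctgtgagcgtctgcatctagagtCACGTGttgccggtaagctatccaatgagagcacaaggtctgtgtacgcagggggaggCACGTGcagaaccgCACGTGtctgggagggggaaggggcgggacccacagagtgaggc
Tef: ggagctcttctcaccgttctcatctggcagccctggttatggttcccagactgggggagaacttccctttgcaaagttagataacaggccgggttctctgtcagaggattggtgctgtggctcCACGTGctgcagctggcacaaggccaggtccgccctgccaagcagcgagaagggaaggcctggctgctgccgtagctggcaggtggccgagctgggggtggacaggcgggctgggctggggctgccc
CACGTG, which reads the same on both strands, begins 116, 58 and 44 bases before the start site in Ciart. In Tef, which has 2 listed promoters, it begins 127 bases before the start site of the stretch shown. In the longer window it was found in 4 of 13 clock promoters (30.8%), in 20 of 125 promoters of genes called lower (16%) and in 18 of 239 of genes called higher (7.53%), beside 10.2% of promoters of the genes tested. The NF-kB forms were found in 8 of 239 promoters of genes called higher outside the list (3.35%) and in 2.66% of those of the genes tested. Neither motif's share was tested.

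Genes lower with the acute level were of several kinds. Syde2 ran from 40.8 CPM in replicate 2 to 83.0 in replicate 8 (slope -0.75). Lama4, a laminin chain gene of basement membranes, ran from 146 CPM in replicate 2 to 255 in replicate 8 (slope -0.61), and its call was lost without replicate 2. Etfbkmt, a methyltransferase gene, had a slope of -0.86, and Pdp2, a phosphatase gene of pyruvate dehydrogenase, one of -0.76, the latter not called without replicate 2. Pecam1, an endothelial adhesion gene, was called lower at -0.39, the 1 of 16 endothelial markers called (6.25%, beside 3.67% of all genes), and lost its call without replicates 2, 6 or 8. Of 15 glucocorticoid-responsive genes tested, Tsc22d3, which encodes the anti-inflammatory protein GILZ, was called lower at -1.01, Zbtb16 lower at -0.31 and Cebpd, a factor that cytokines also induce, higher at 0.70. These 3 are 20% of the list, beside 3.67% of all genes. None of the 3 was called without replicate 2 or without replicate 8, and Zbtb16 lost its call whichever library was left out. Of the 15, 12 had slopes below 0 with a median of -0.173, against 0.0676 in the drug-fed libraries.

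Most matrix genes had slopes above 0, with calls near the share of all genes. All 15 fibrillar and network collagen genes were above 0, at a median of 0.29, and 0 were called, beside 3.67% of all genes. In the drug-fed libraries the median was -0.00929. Of 15 elastic fibre genes, Eln was called (6.67%), at 0.87 (SE 0.21, edgeR adjusted p = 0.0496). That call was kept in 2 of the 8 fits without a library. The slope of Eln in the drug-fed libraries was -0.43 (SE 0.27). Markers of neutrophils and macrophages had no call on the level, which in lists this small is also near the 3.67% of all genes. All 10 tested neutrophil markers had slopes below 0 with a median of -0.914 and 0 called, but a median of 0.452 in the drug-fed libraries, and macrophage markers had a median of 0.0454. The neutrophil list summed to 125 CPM in replicate 8, which had the lowest acute level, and to 52.1, 55.1 and 49.3 CPM in replicates 1, 2 and 6, which had the highest. Its lowest sum, 33.6 CPM, was in replicate 7, where the acute level was also low. The levels of both lists had a Pearson r of -0.475 (exact permutation p = 0.231, adjusted p = 0.386). The part of any cell type in the acute pattern was not tested.

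Most genes called on the acute level had the same sign in the 16 drug-fed libraries. Those libraries were scaled and fitted on their own, with a term for the drug. Of the 326 genes called higher, 311 (95.4%) had a slope above 0 there and 246 were called. Over all genes with a slope above 0 in the controls, 65.8% kept the sign. Of the 162 called lower, 158 (97.5%) had a slope below 0 and 93 were called, beside 70.4% of all genes with a slope below 0. Rnd1 had 1.69 (SE 0.16) in the drug-fed libraries and 1.99 (SE 0.14) in the controls, and Csf2 2.47 (SE 0.25) and 2.69 (SE 0.26). The slopes of Plau lay further apart, at 0.57 (SE 0.14) and 2.12 (SE 0.21).

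Adipose genes formed a second group that moved together. Ucp1, the uncoupling protein that lets brown fat make heat, had 56.49 CPM in replicate 7, a median of 155.3 and 592.5 in replicate 4. Hp, the haptoglobin gene, had 389.7 to 2276 CPM and Scd1, a fatty acid desaturase gene, 593.3 to 6644. Fasn, the fatty acid synthase gene, had 185 to 2342. Each of these was lowest in replicate 7 and highest in replicate 4. Hp, Scd1 and Fasn were picked after the values were seen, so they are no separate support for the group. The 13 brown adipocyte markers summed to 249 CPM in replicate 7, 477 to 771 in 6 libraries and 1410 in replicate 4. The 16 general adipocyte markers summed to 2780 CPM in replicate 7, with a median of 4370, and 8360 in replicate 4. The levels of the 2 lists, which share no gene, had a Pearson r of 0.991 (exact permutation p = 7.44e-05, adjusted p = 0.00112 over 15 pairs) and a Spearman rho of 0.976 (exact permutation p = 0.000397, adjusted p = 0.00595). Without replicates 4 and 7 the r was 0.986, and without replicate 3 it was 0.992 with an exact permutation p of 0.118 after adjustment. It was 0.922 with celecoxib and 0.631 with rofecoxib.

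With the brown adipocyte level as the measure, 601 of 13318 genes were called by edgeR (4.51%), 595 higher (4.47%) and 6 lower (0.0451%). Without replicate 4 the count was 175. Mrap, an accessory protein gene of the corticotropin receptor that fat expresses, ran from 9.554 CPM in replicate 7 to 58.15 in replicate 4, with a slope of 1.01 (SE 0.05, edgeR adjusted p = 7.52e-06). Slc36a2, an amino acid transporter gene, had a slope of 1.10, Lipe, which encodes hormone-sensitive lipase, 0.99, Pcx, the pyruvate carboxylase gene, 1.04 and Acaa2, an enzyme of fatty acid oxidation, 0.98. Of 16 general adipocyte markers, 14 were called higher (87.5%, beside 4.47% of all genes), at a median slope of 0.851, among them Pparg, the regulator of fat cell identity, at 0.91, and Adipoq, the adiponectin gene, at 0.95. Lep, the leptin gene, had 0.73 (SE 0.56) and Plin4 0.09 (SE 0.06), not called.

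Nuclear genes of the respiratory chain followed the same level in the same direction. Of 81 tested, 51 were called higher and 0 lower, beside 4.47% higher and 0.0451% lower of all genes. Without replicate 4, 10 were called higher. Their median slope was 0.259 against -0.00825 over all genes. As a class they took 0.6584% of reads in replicate 7, a median of 0.7725% and 1.163% in replicate 4. Endothelial markers had 1 call of 16 (6.25%, beside 4.51% of all genes), Kdr, a receptor for vascular endothelial growth factor, at 0.61, a call lost without replicate 4. Contractile smooth muscle genes had slopes below 0 in 14 of 16, with a median of -0.135 and 0 called. The 6 genes called lower had slopes of -0.21 to -0.38 among Rsbn1l, Lgr4, Hpf1, Zik1 and Casq1, the 5 named by the rule. Each of these 5 lost its call without replicate 4 and also without replicate 7. Zik1 and Casq1 kept theirs in 2 of the 8 fits that left out a library. In the drug-fed libraries 586 of the 594 higher genes that could be fitted (98.7%) had the same sign, beside 69.7% of all genes, and 393 were called. The 6 lower genes all had the same sign there, beside 71.6% of all genes with a slope below 0, and 0 were called.

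**Figure D5:**
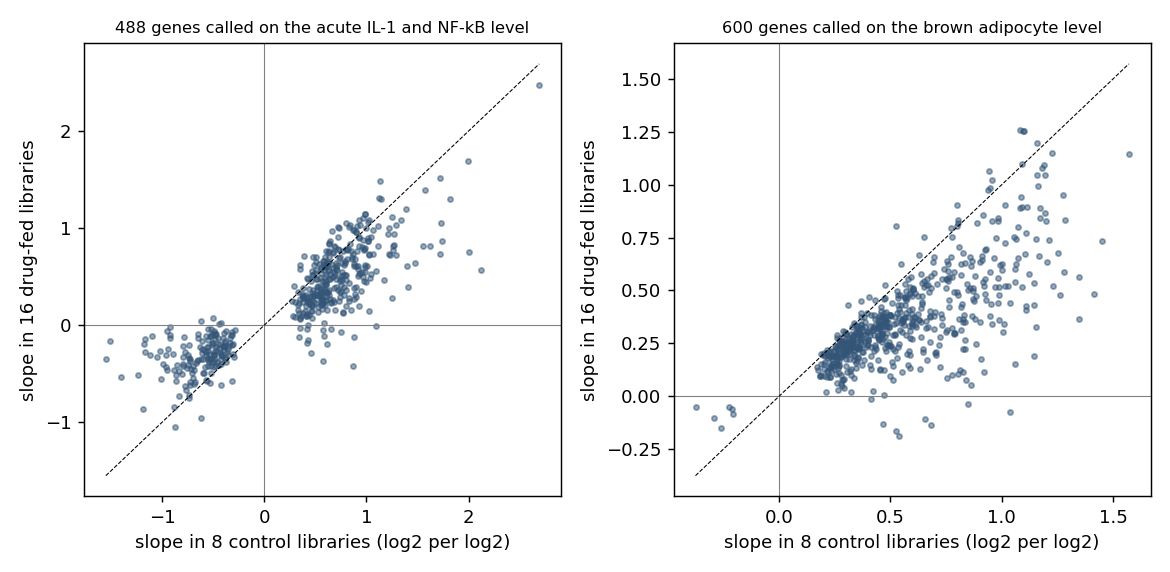
Slope of each called gene on the acute level (left) and on the brown adipocyte level (right) in the 8 control libraries, against its slope in the 16 drug-fed libraries, with the dashed line at equal slopes. Nearly all points share the sign (311 of 326 and 158 of 162 on the left), and many lie nearer 0 in the drug-fed libraries.

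The interferon list of 24 genes gave no call. Its level ran from 5.53 to 5.97, with replicate 8 the highest, and 0 of 13306 genes were called by edgeR (0%), with 696 at an unadjusted p under 0.05, 9 by DESeq2 and 0 by limma voom. The contractile smooth muscle level, from 9.5 in replicate 4 to 9.85 in replicate 5, gave 1 call of 13314 genes (0.00751%). This was Hmox1, the gene of heme oxygenase-1, with 45.3 CPM in replicate 4, 28.2 in replicate 3 and 11.7 to 19.8 elsewhere, and a slope of -5.30 (SE 0.56, edgeR adjusted p = 0.0315). The call held in 6 of 14 other fits and in 2 of the 8 that left out a library. Before adjustment 2650 genes had a p under 0.05, and DESeq2 called 543. Apart from the pair of adipocyte lists, none of the 15 pairs passed by the adjusted Pearson p. By Spearman rho, immediate early with heat shock genes also passed, at 0.905 (exact permutation p = 0.00456, adjusted p = 0.0342), with an r of 0.826 that fell to 0.612 without replicates 1 and 2. The r of that pair was 0.547 with celecoxib and -0.368 with rofecoxib.

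Each of the 4 marker genes had its own nearest companions over the 8 libraries, among 10643 genes with at least 5 CPM. The measure was the Pearson r of log2 CPM, given as a description. Tagln had an r of 0.976 with Acta2, and 0.944 over the 16 drug-fed libraries. Sec24a, a coat protein gene of secretory vesicles, had the highest r with Acta2 in control, 0.985, and 0.161 in the drug-fed libraries. Flna had an r of 0.971 with Myh11 and 0.939 in the drug-fed libraries, while Ccdc88a, first in control at 0.982, had -0.0493 there. The closest to Icam1 were Il10rb, a subunit of the interleukin-10 receptor, at 0.988 and Vcam1, another leukocyte adhesion gene induced by cytokines, at 0.987, with 0.963 and 0.896 in the drug-fed libraries. The closest to Ptgs2 were Xpo5, which exports microRNA precursors, at 0.987 and Zc3h12c, an RNA-binding regulator gene, at 0.982, with 0.768 and 0.763 there. With 8 libraries high values are common: 83 genes had an r above 0.9 with Acta2, 142 with Myh11, 169 with Icam1 and 70 with Ptgs2.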

How the data were processed

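Poly(A)-selected RNA was sequenced with the TruSeq kit, per the labels' protocols. The authors deposited whole-number read counts per gene. The submitters' processing notes name CASAVA 1.8.1, STAR 2.5.1b and mm9. What counted the reads, on which annotation and with which strand setting is not given in the sources used here, nor how the library totals came to be alike. Reads of near-identical or overlapping genes, such as actins, metallothioneins or globins, may be split. The series' text calls the samples of a group biological replicates.

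Counts were scaled by TMM in edgeR 4.0.16 (R 4.3.3). SDs of log2 CPM used a prior count of 2 and genes averaging 1 CPM or more. Exon lengths came from GENCODE M21 (GRCm38), matched by gene identifier for 24179 genes, which also gave current symbols. Slopes on a list level were tested with edgeR's quasi-likelihood test, two-sided, on 13330 genes passing the default expression filter, called where the p adjusted over all of them (Benjamini-Hochberg) was under 0.05; list members were left out of counts. The drug-fed libraries were fitted apart with a term for the drug. Correlations of list levels used all 40320 pairings, adjusted over 15 pairs. The scripts were tested on simulated counts.

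The libraries, the 26 lists (391 symbols, all matched) and the tests were chosen with earlier results of these data known. Named genes were the 4 markers, the 20 highest by CPM and per kb, the 20 most and 10 least variable, the 5 called genes with the smallest p in each direction, the 4 highest and the most variable member of each list, the 5 genes most like each marker and 8 fixed genes; some are printed. Called list members, Irf1, Csf2, Rela, Nfkbie, Plau, Ptgir, Hp, Scd1, Fasn and the sympathetic neuron list were chosen after the values were seen. So were the 17 gene classes, made from name patterns. The fits were repeated with size factors from RLE, with library size alone, without a filter and with a mean of at least 1 CPM (for list levels chosen after seeing the data), by DESeq2 1.42.0 and limma voom (limma 3.58.1), with other prior counts, with medians of members and without each library in turn.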

Additional observations from a re-analysis of the deposited data

Results flagged for a closer look

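Dixon's test at the 95% level was run on 91 values of the 8 control libraries, 25 list levels and 66 genes, and marked 7 with 1 library far from the rest. Chance marks about 1 in 20, but that rate does not hold for the genes included for their large or small spread, such as Myh4, Atp2a1 and Ddx47. The numbers are the gap to the nearest library as a share of the whole range. Replicate 3 was highest and stood apart in Myh4 (0.882), in Atp2a1 (0.788) and in the level of the skeletal muscle list (0.768). It was lowest in the level of the cell cycle list (0.575). These 2 levels rest on the tested members, 5 of 15 for skeletal muscle and 11 of 16 for cell cycle. Replicate 8 was far above the others in B2m (0.595) and in the interferon level (0.536). Replicate 5 was lowest in Ddx47 (0.527), one of the steadiest genes, at 62.22 CPM against 63.9 to 65.39 in the others.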

How the results depend on the processing

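No paired analysis was possible because only 1 group was described and each replicate number occurs once in it. The count of genes called on the acute level was 290 with no filter on low counts and 913 by DESeq2, and 54 to 483 when each library was left out in turn. On the brown adipocyte level it was 175 to 586 when each was left out. On the contractile level it was 0 with RLE size factors and with library size alone, 26 with no filter, 543 by DESeq2 and 0 to 25 when each was left out. DESeq2 called 9 genes on the interferon level. Genes with an SD above 1 numbered 18 with a floor of 5 CPM. The adipocyte lists kept an r of 0.991 to 0.998 when each library was left out, with the adjusted p at 0.118 without replicate 3. The acute and immediate early lists had 0.754 to 0.938, and 0.936 without replicates 2 and 6. Immediate early with heat shock passed with medians of members (0.863), and brown adipocyte with skeletal muscle, at 0.307, reached 0.99 without replicates 4 and 7. Directions that turned were all of pairs not called. Acute with glucocorticoid-responsive was 0.0596 with medians of members and -0.757 with means (exact permutation p = 0.0293, adjusted p = 0.11). Leaving libraries out gave -0.36 to 0.641 for acute with interferon, -0.271 to 0.207 for acute with brown adipocyte, and -0.448 to 0.244 for acute with endothelial, the last at 0.575 without replicates 2 and 6. Contractile with fibroblast was -0.315 without replicates 3 and 4. The slope of Nr1d1 ran from -0.105 (without replicate 8) to 0.242 when each library was left out. The cause of these changes was not tested, but fits without a library hold fewer samples. All 4 markers' mean levels moved by less than 1 SD with library size alone. With 8 libraries of 1 group, small slopes are the least likely to be called.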
